A study of Oryza sativa Japonica Group with 12 samples.

Results

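Transcript levels in the shoot base of the rice mutant gs1;2 were compared between plants aged 11 d and plants aged 7 d. The comparison rests on 6 of the 12 arrays of the series, 3 for mutants at 11 d and 3 for mutants at 7 d, chosen by genotype and age in the labels. The other 6 arrays are wild-type plants, 3 at 11 d and 3 at 7 d, and are used here to estimate the spread and to test where the age difference of the mutant differs from theirs. The mutant plants are labelled as homozygous for gs1;2, a mutation of cytosolic glutamine synthetase 1;2. Both genotypes are labelled Nipponbare, and the labels place all samples in a greenhouse, under a lamp and sunlight, in hydroponic solution whose nitrogen source was 1 mM ammonium. RNA of the basal 5 mm of shoots was hybridised to the Affymetrix Rice Genome Array, on which a probe set reports a transcript. The sources used here give neither the kind of mutation nor how many plants made up a sample. Replicates are called biological in the design text.

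As background, the shoot base holds the apical meristem, the young leaf sheaths and the axillary buds from which tillers grow. Cytosolic glutamine synthetase joins ammonium to glutamate, which makes glutamine, and glutamate synthase then passes the nitrogen on to glutamate. Of the rice cytosolic enzymes, glutamine synthetase 1;2 is the one known for the assimilation of ammonium in roots and in the shoot base, and mutants without it grow fewer tillers.

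Values are log2 signals, and a difference of 1 on this scale is a doubling of signal. Differences are given as 11 d minus 7 d with the standard error (SE) of a linear model over all 12 arrays (limma). A probe set passed when its p-value, adjusted by the Benjamini-Hochberg method over all 57194 probe sets tested, was under 0.05. A gene with several probe sets is read from the brightest one in counts of genes. The precision of every value is limited by the 3 arrays of a group.

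The targeted gene was read first. GLN1-2, which encodes glutamine synthetase 1;2, had log2 signals of 8.37, 8.65 and 11.44 in mutants at 11 d, against 7.76, 7.65 and 7.80 in mutants at 7 d. In wild-type plants it had 12.44, 12.42 and 12.50 at 11 d and 12.38, 12.31 and 12.46 at 7 d. The array labelled mutant 11 d replicate 3 thus lay near the wild-type level, while the other 5 mutant arrays lay far below it. The age difference of GLN1-2 in the mutant was 1.75 (SE 0.57, limma adjusted p = 0.085), and without the array labelled replicate 3 it was 0.78 (adjusted p = 0.00082). Over all probe sets that array correlated with the other 2 arrays of its group at r = 0.995 to 0.996, with mutants at 7 d at 0.990, with wild type at 11 d at 0.982 to 0.985 and with wild type at 7 d at 0.990 to 0.991, as a description of arrays that share most of their signal. The age differences and the interactions with genotype are therefore read also without it.

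The age groups differ in more than age. Titles mark every array at 11 d as 4th and every array at 7 d as 3rd, which the labels do not explain, and they give no hour of harvest. Age, whatever the title marking stands for, and hour of harvest cannot be told apart in the mutant. The growth text assigns a range of sample numbers to another growth chamber, another lamp and a longer culture, and the wild-type arrays at 11 d carry numbers within that range in their titles. Their source label still gives 11 d and their description the greenhouse. A different condition or age of that group cannot be told apart from genotype, which touches every wild-type difference and interaction below.

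Markers of tissues that the segment could hold were read at both ages, and their signals were not tested against background. The class I KNOX gene OSH1, a marker of the shoot meristem, had signals of 11.71, 11.63 and 11.66 in mutants at 11 d, against 11.54, 11.67 and 11.29 in mutants at 7 d, and the groups overlapped. None of the 5 KNOX genes passed, and their mean level lay between 8.56 and 8.65 at 11 d and between 8.45 and 8.60 at 7 d. None of the 3 phloem markers passed (mean level 9.53 to 9.75 at 11 d and 9.39 to 9.63 at 7 d), although 1 of them, SUT1, passed without the array labelled replicate 3 (0.54, limma adjusted p = 0.045). Of the 4 root markers 1 was higher, the silicon transporter gene Lsi2 (1.52), with a mean level of the list of 7.19 to 7.35 at 11 d and 6.75 to 7.01 at 7 d. Of the 15 seed markers 1 was higher and 1 lower at 11 d, with mean levels of 4.36 to 4.42 at 11 d and 4.41 to 4.50 at 7 d. Of the 2 sheath and internode markers CSLF6 was higher (0.58), with mean levels of 6.56 to 6.65 at 11 d and 6.36 to 6.40 at 7 d. These levels average CSLF6 (10.82 at 11 d and 10.25 at 7 d) with EXP4 (2.36 and 2.50), which did not pass. Green leaf markers differed between the ages and are described with the photosynthesis genes below.

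Of the 57194 probe sets, 4846 passed, which is 8.47%. At 11 d 2067 were higher (3.61%) and 2779 were lower (4.86%). The changes were mostly small, with a median size of 0.546 among the probe sets that passed, and 753 of them changed by at least 1, 423 upward and 330 downward. Only 38 changed by 3 or more. The 3 arrays at 11 d and the 3 arrays at 7 d did not overlap for 4807 of the 4846, against 24.2% of all probe sets. Calls and overlap are read from the same arrays, so this count is only a description and no separate evidence. The same holds for lack of overlap in single genes that passed. It was also a condition for the largest changes named below. Without the array labelled mutant 11 d replicate 3, 3725 passed (6.51%), of which 2.78% of all probe sets were higher and 3.73% lower. Of the 4846, 3362 passed again in the same direction, 1484 were lost, 363 were gained and none turned its sign. The count of higher probe sets was 1352 without mutant 11 d replicate 1, and the count of lower ones was 1771 without mutant 7 d replicate 3. Read by gene, 1165 of 17905 genes were higher at 11 d (6.51%) and 1607 were lower (8.98%), so that 15.5% passed in either direction, and the median gene differed by -0.01. The lower count was 1045 without mutant 7 d replicate 3. Groups did not overlap for 36.3% of genes. Without the array labelled replicate 3, 5.24% of genes were higher, 6.93% were lower and 12.2% passed in all. These shares are what the counts in the marker lists above and in the gene lists below are set beside.

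**Figure D1:**
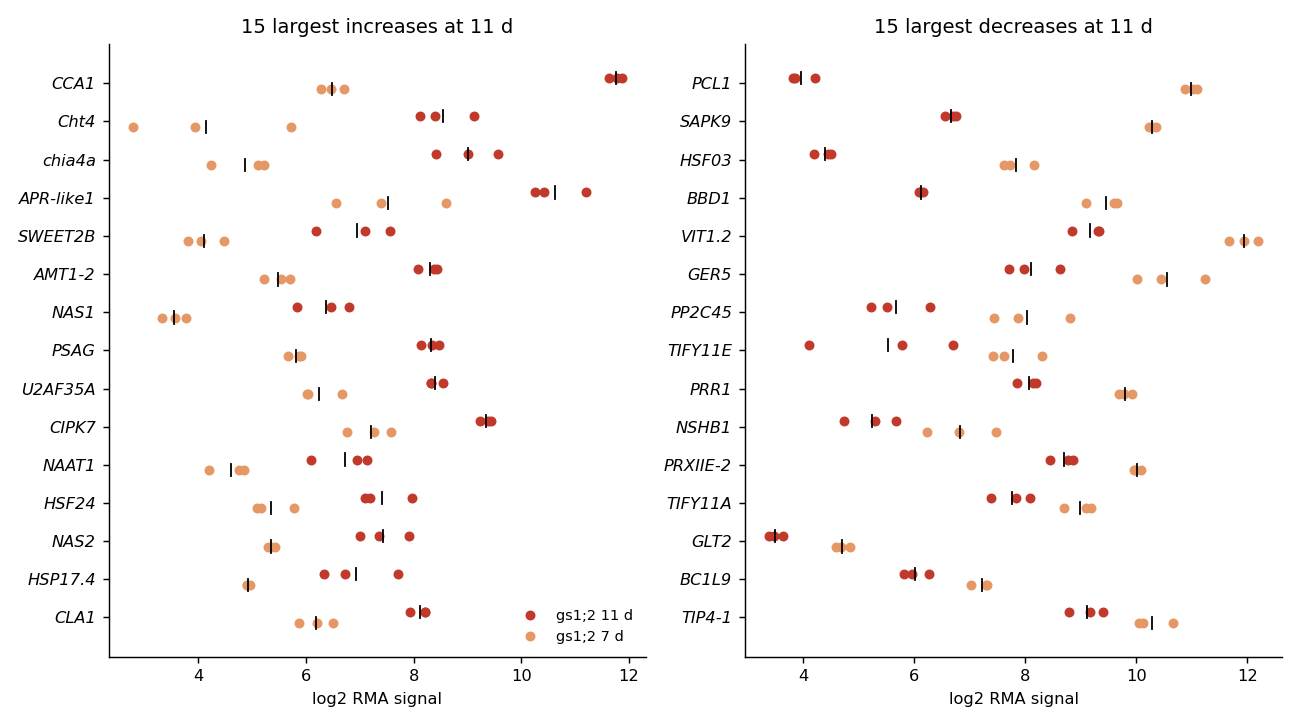
Log2 signal (x axis) of the 15 largest increases (left) and the 15 largest decreases (right) at 11 d in the mutant, among genes with an informative name that passed with and without 11 d replicate 3 and whose age groups did not overlap. Dots are single arrays, 3 for 11 d in red above 3 for 7 d in orange, and the vertical bar is the group mean. The widest gap is that of PCL1, at 3.81 to 4.21 at 11 d and 10.87 to 11.09 at 7 d.

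The circadian clock genes held both the largest increase and the largest decrease among genes with an informative name. As background from Arabidopsis, CCA1 is a morning transcription factor of the clock, the PRR proteins follow each other through the day, and PCL1 (LUX), GI and PRR1 (TOC1) belong to its evening side. CCA1 had signals of 11.86, 11.62 and 11.77 at 11 d, against 6.70, 6.46 and 6.28 at 7 d. The difference was 5.27 (SE 0.14, limma adjusted p = 9.9e-10), or 38.7-fold, and a second, dim probe set of the gene did not pass (0.23, adjusted p = 0.12).

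PCL1 ran the other way, with 3.81, 4.21 and 3.86 at 11 d, against 11.01, 11.09 and 10.87 at 7 d. It was 131-fold lower at 11 d, a difference of -7.03 (SE 0.13, limma adjusted p = 3.4e-11). Its signals at 11 d lay below the array medians of 4.94 to 5.00 and were not tested against background, so this fold rests on a dim signal. The same holds for Cht4, chia4a, SWEET2B, NAS1, NAAT1, HSP17.4 and LOC4326757 (mean below those medians at 7 d). It also holds for HSF03 and LOC4352254 (mean below them at 11 d) and for Lsi2 (mean below them at both ages). PRR1 had 7.85, 8.15 and 8.18 at 11 d, against 9.91, 9.78 and 9.68 at 7 d, a difference of -1.73 (SE 0.12). GI had 10.66, 10.86 and 10.85 at 11 d, against 11.91, 11.96 and 11.95 at 7 d, a difference of -1.15 (SE 0.07). In PCL1, PRR1 and GI all 3 arrays at 11 d lay on 1 side of all 3 at 7 d. For PCL1 and PRR1 this was a condition of their choice among the largest changes.

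PRR37 and PRR73 were higher at 11 d by smaller amounts, 0.41 (SE 0.07) and 0.35 (SE 0.07). PRR95 had 10.53, 10.55 and 10.60 at 11 d, against a wide 10.61, 9.95 and 9.44 at 7 d, and did not pass (0.56, adjusted p = 0.35), nor did XCT (0.07). Of the 8 clock genes measured, 3 were thus higher, 3 were lower and 2 did not pass. All 6 calls were kept with each of the 12 arrays left out in turn. In wild-type plants CCA1 and PCL1 differed between the ages in the same directions by 3.79 and -3.31, and both differences were larger in the mutant (interaction 1.49, adjusted p = 0.00026, and -3.73, adjusted p = 2.3e-06). PRR1 and GI did not pass in wild type, at 0.14 and 0.18, and the interaction was -1.87 and -1.33. PRR73 rose more in wild type (0.86, interaction -0.51). PRR37 was higher there too (0.55), and PRR95 passed only in wild type (1.54). The interaction did not pass for PRR37 or PRR95. Transcripts of clock genes change through the day, and age and hour of harvest cannot be told apart here.

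**Figure D2:**
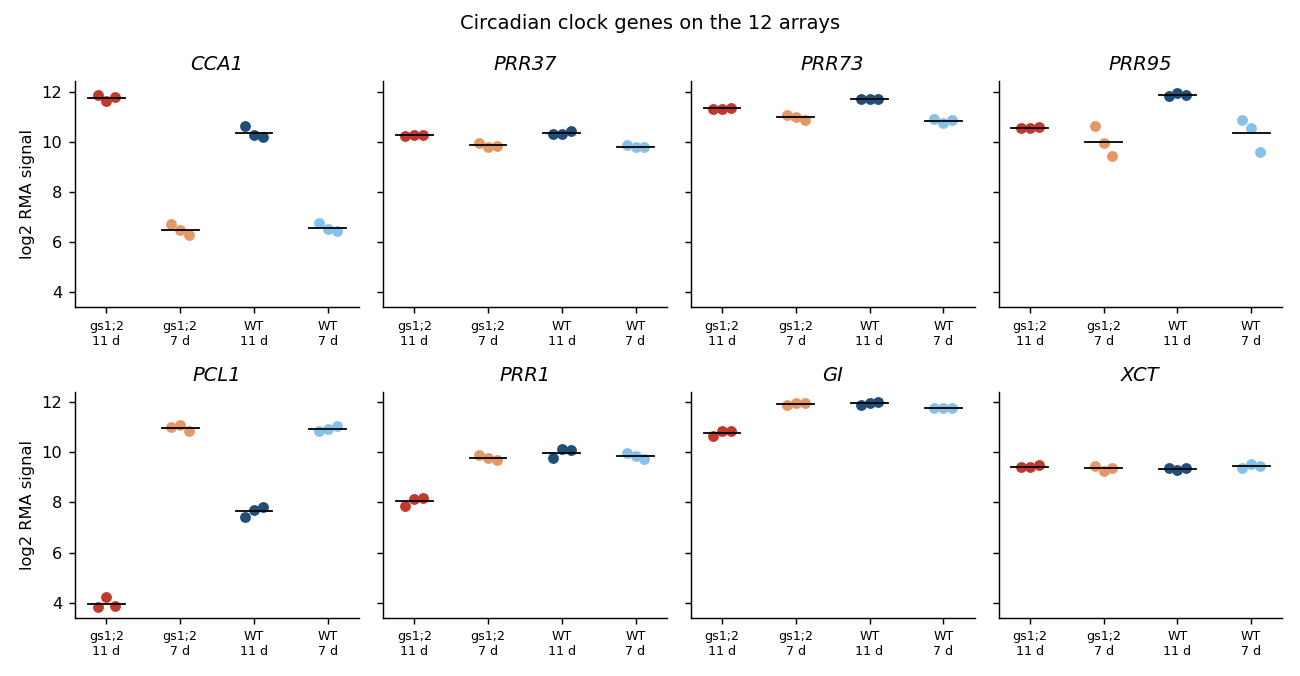
Log2 signal (y axis) of the 8 clock genes on the 12 arrays, with a dot for each array, a bar for the group mean, and the groups in the order gs1;2 11 d, gs1;2 7 d, WT 11 d and WT 7 d. CCA1 is high and PCL1 low at 11 d in both genotypes, while PRR1 and GI are low in the 11 d mutants (7.85 to 8.18 and 10.66 to 10.86).

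Among genes of nitrogen uptake and assimilation, an ammonium transporter stood out. AMT1-2, a high-affinity ammonium transporter known mainly from roots, had signals of 8.38, 8.44 and 8.09 at 11 d, against 5.70, 5.53 and 5.21 at 7 d. All 3 arrays at 11 d lay well above those at 7 d, and the difference was 2.82 (SE 0.17, limma adjusted p = 1.5e-06), or 7.06-fold. In wild-type plants AMT1-2 stayed at 5.43, 5.37 and 4.85 at 11 d and 5.37, 5.19 and 5.52 at 7 d, so its level at 11 d was high in the mutant and not in wild type (interaction 2.96, adjusted p = 1.4e-05).

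Genes of plastid ammonium assimilation fell. GLN2, the plastid glutamine synthetase, had 9.60, 9.55 and 9.57 at 11 d, against 10.04, 10.27 and 10.17 at 7 d, a difference of -0.59 (SE 0.08, limma adjusted p = 0.00058). Fd-GOGAT, the ferredoxin-dependent glutamate synthase, fell by 0.48 (SE 0.08), with 10.25, 10.20 and 10.12 at 11 d and 10.53, 10.75 and 10.74 at 7 d. GLT2, an NADH-dependent glutamate synthase, had 3.39, 3.63 and 3.47 at 11 d, against 4.59, 4.85 and 4.68 at 7 d, a difference of -1.21 (SE 0.18). The signals of GLT2 lay below the array medians of 4.94 to 5.00 at both ages.

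The other cytosolic glutamine synthetase of the shoot, GLN1-1, had 11.74, 11.70 and 11.86 at 11 d, against 11.53, 11.49 and 11.59 at 7 d, and did not pass (0.23, SE 0.08, adjusted p = 0.11) although the groups did not overlap. GLN1-3 differed by 0.12 and GDH2, a glutamate dehydrogenase, by -0.34, and neither passed. NIA1, a nitrate reductase, had 7.48, 8.11 and 7.30 at 11 d, against 7.06, 7.04 and 6.58 at 7 d. It missed the threshold (0.74, limma adjusted p = 0.054) and passed without the array labelled replicate 3 (0.90, adjusted p = 0.034). In wild type NIA1 was lower at 11 d (-1.65, interaction 2.39), and GDH2 was higher there (3.00, interaction -3.34). Of the 25 nitrogen genes 1 was higher and 5 were lower, against 6.51% and 8.98% of all genes. AMT1-2, GLN2, Fd-GOGAT and GLT2 passed with each array left out. The remaining 2, AMT3-3 (-0.47) and GDH1 (-0.24), each lost their call without mutant 11 d replicate 1 or 2, mutant 7 d replicate 2 or 3, wild-type 11 d replicate 1 or wild-type 7 d replicate 2, and GDH1 also without 5 other arrays. Without the array labelled replicate 3 the counts were 3 higher (AMT1-2, NIA1 and GLN1-2) and 4 lower, and the higher count was 2 without mutant 11 d replicate 1 or wild-type 11 d replicate 1. The other 14 genes of the list, among them 6 ammonium transporter genes and 3 NIN-like protein genes, did not pass and ranged from AMT3-2 at -0.79 to NAR2.2 at 0.25.

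A set of 3 genes of phytosiderophore synthesis were higher together. Grasses take up iron with mugineic acids, which are made from nicotianamine by nicotianamine aminotransferase. NAS1, a nicotianamine synthase, had signals of 5.83, 6.81 and 6.46 at 11 d, against 3.78, 3.56 and 3.32 at 7 d, a difference of 2.81 (SE 0.27, limma adjusted p = 6.0e-05). NAS2, a second synthase, had 6.99, 7.35 and 7.92 at 11 d, against 5.42, 5.29 and 5.35 at 7 d, a difference of 2.07 (SE 0.18). NAAT1, the aminotransferase, had 6.95, 7.13 and 6.10 at 11 d, against 4.76, 4.20 and 4.84 at 7 d, a difference of 2.13 (SE 0.28). In each of the 3 the lowest array at 11 d lay above the highest at 7 d, which was a condition of their choice among the largest changes.

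VIT1.2, a vacuolar iron transporter, moved the other way, with 9.31, 8.85 and 9.32 at 11 d, against 11.93, 12.19 and 11.68 at 7 d. The difference was -2.77 (SE 0.17, limma adjusted p = 2.4e-06), or 6.82-fold lower. NRAMP3, a metal transporter, was higher by 0.62 (SE 0.10), and NRAMP6, another of the family, was lower by -0.55 (SE 0.09). Of the 34 iron genes, 5 were higher, 5 were lower and 24 did not pass (14.7% each way, beside 6.51% and 8.98% of all genes). With each array left out in turn 4 of the higher and 3 of the lower kept their call, and the count of lower genes was 3 without mutant 11 d replicate 1, mutant 11 d replicate 2 or mutant 7 d replicate 3. In wild-type plants NAS1, NAS2 and NAAT1 did not pass, with differences of -0.06, -0.27 and -0.32, and the interaction passed for all 3 (2.87, 2.33 and 2.45). VIT1.2 fell in wild type as well, by 1.25, and fell further in the mutant (interaction -1.53, adjusted p = 0.00089).

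Several genes of chlorophyll synthesis and light harvesting were higher at 11 d, while others of the same list were lower or did not pass. Of the 37 genes on the photosynthesis and chlorophyll list, 12 were higher (32.4%, against 6.51% of all genes) and 7 were lower (18.9%, against 8.98%), and the median difference was 0.14. PSAG, a subunit of photosystem I, had signals of 8.46, 8.13 and 8.34 at 11 d, against 5.87, 5.67 and 5.90 at 7 d. It was 5.67-fold higher at 11 d (2.50, SE 0.13, limma adjusted p = 4.3e-07), but a second, dimmer probe set of PSAG differed by 0.15 and did not pass.

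CAO, the oxygenase that makes chlorophyll b, had 9.54, 8.92 and 8.99 at 11 d, against 7.21, 7.22 and 7.31 at 7 d, a difference of 1.91 (SE 0.19). PORA, a light-dependent protochlorophyllide oxidoreductase, had 10.51, 10.59 and 10.38 at 11 d, against 8.88, 8.46 and 8.71 at 7 d, a difference of 1.81 (SE 0.18). LHCP, a light-harvesting chlorophyll protein, had 12.99, 12.74 and 12.78 at 11 d, against 11.46, 11.28 and 10.92 at 7 d, a difference of 1.62 (SE 0.25). The age groups lay apart in all 3 genes.

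CHLH, a subunit of magnesium chelatase, was higher by 1.39 (SE 0.19), although a second probe set differed by 0.14 and did not pass. GluTR, glutamyl-tRNA reductase at the start of the pathway, was higher by 0.87 (SE 0.11). CLA1, which opens the plastid pathway to isoprenoids and so to the phytol of chlorophyll, had 8.21, 7.93 and 8.20 at 11 d, against 6.50, 5.88 and 6.20 at 7 d, a difference of 1.93 (SE 0.20), and its second probe set was higher by 1.34. Not every gene of the list moved upward. NDH-M, a subunit of the chloroplast NADH dehydrogenase-like complex, was lower by -1.04 (SE 0.13), PORB differed by 0.18 and did not pass, and the Rubisco activase gene RCAA1 differed by 0.87 and did not pass, with overlapping groups (10.50, 9.47 and 9.95 at 11 d, against 8.52, 9.68 and 9.13 at 7 d).

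Without the array labelled replicate 3 the photosynthesis list had 11 higher and 5 lower genes, and the lower count was 4 without mutant 7 d replicate 3. The mean level of the 8 green leaf markers was 9.30 to 9.66 in mutants at 11 d, against 8.46 to 8.67 in mutants at 7 d, and 4 of the 8 were higher. The other 4 did not pass and differed by -0.48 (RBCS), 0.14 (RBCS1), 0.18 (PORB) and 0.87 (RCAA1). In a bulk sample more green cells, more of these transcripts in each cell and the hour of harvest cannot be told apart. In wild-type plants 4 of the 37 photosynthesis genes were higher at 11 d, against 25.5% of all genes, and 18 were lower, against 28.4%, with a median of -0.28. The interaction was higher for 16 of the 37 and lower for 2, against 18.6% and 19.6% of all genes. PORA, CAO and LHCP did not pass in wild type, at -0.30, -0.28 and -0.24, and the interaction passed for each (2.11, 2.18 and 1.86).

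**Figure D3:**
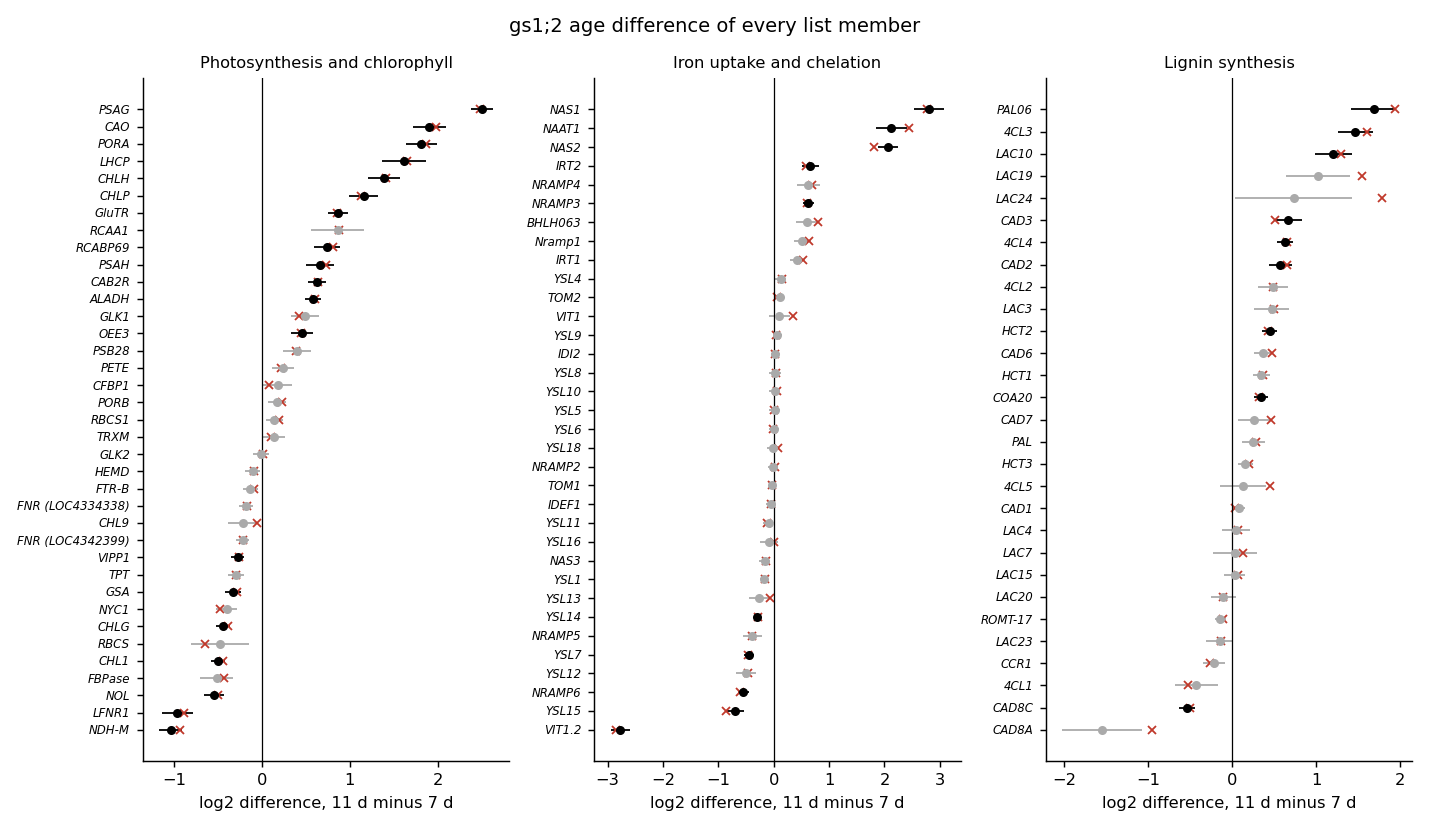
Age difference, 11 d minus 7 d on the log2 scale (x axis), of every gene on the photosynthesis, iron and lignin lists in the mutant. Dots are the fitted difference with its SE, black where the gene passed and grey where it did not, and red crosses are the difference without the array labelled 11 d replicate 3. The largest increase in each panel is that of PSAG (2.50), NAS1 (2.81) and PAL06 (1.68), and VIT1.2 (-2.77) is the largest decrease of the 3 panels.

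Genes of the secondary cell wall and some of the lignin genes were also higher. All 4 secondary wall genes passed, the cellulose synthases CESA4, CESA7 and CESA9 and BC1, a COBRA-like protein needed for the mechanical strength of the culm. BC1 had signals of 7.72, 7.78 and 7.29 at 11 d, against 6.33, 6.72 and 6.47 at 7 d, a difference of 1.09 (SE 0.16, limma adjusted p = 0.0013). CESA9 had 8.43, 8.36 and 7.97 at 11 d, against 7.34, 7.80 and 7.32 at 7 d, a difference of 0.76 (SE 0.14). CESA7 (0.69) and CESA4 (0.62) were higher by similar amounts, but neither passed without mutant 11 d replicate 1, mutant 11 d replicate 2 or mutant 7 d replicate 1, nor CESA4 without mutant 7 d replicate 3. The mean level of the 4 was 8.69 to 9.12 at 11 d, against 8.01 to 8.43 at 7 d.

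Lignin is built from phenylalanine by way of phenylalanine ammonia-lyase and 4-coumarate:CoA ligase, and laccases join its units in the wall. PAL06, a phenylalanine ammonia-lyase, had 10.32, 10.41 and 9.62 at 11 d, against 8.23, 8.99 and 8.07 at 7 d, a difference of 1.68 (SE 0.26). 4CL3, a ligase, had 9.29, 9.48 and 8.97 at 11 d, against 7.49, 8.18 and 7.68 at 7 d, a difference of 1.47 (SE 0.21). LAC10, a laccase, had 8.24, 8.33 and 8.00 at 11 d, against 6.62, 7.24 and 7.10 at 7 d, a difference of 1.21 (SE 0.22). Each of the 3 was higher on all 11 d arrays than on any 7 d array. 4CL4 (0.63) and HCT2 (0.44) were higher too, and CAD8C, of the cinnamyl alcohol dehydrogenase family, was lower (-0.54).

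In all, 8 of 29 lignin genes were higher (27.6%) and 1 was lower (3.45%), beside 6.51% and 8.98% of all genes, with a median of 0.26. The higher count was 9 without the array labelled replicate 3 and 5 without mutant 11 d replicate 1 or without mutant 7 d replicate 3, and the lower count was 2 without mutant 11 d replicate 2 or wild-type 11 d replicate 1. Of 109 genes on the wider cell wall list 18 were higher and 10 were lower, 16.5% and 9.17% beside 6.51% and 8.98% of all genes. The lower share was thus near that of all genes. The higher count was 7 to 11 without mutant 11 d replicate 1, 2 or 3 or mutant 7 d replicate 1 or 3. The lower count was 6 without mutant 7 d replicate 3. Among those that passed with each array left out, CSLE1 was higher (0.67), while EXP7 (-0.53), of the expansin family that loosens walls, and BC1L9, a COBRA-like protein (-1.20), were lower. EXLA3, an expansin-like gene, was lower too, with 8.22, 8.24 and 8.37 at 11 d, against 9.23, 9.28 and 9.32 at 7 d. Wild-type plants ran the other way for the secondary wall, since all 4 of its genes were lower at 11 d, against 28.4% of all genes, and BC1 fell by 2.23. The interaction passed for all 4 genes, against 38.2% of all genes, and was 3.31 (adjusted p = 9.2e-06) for BC1.

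Cytokinin response genes differed between the genotypes in their age difference. Type-A response regulators are rapidly induced by cytokinin and dampen its signal. RR9 had signals of 9.76, 9.17 and 9.84 in mutants at 11 d, against 8.89, 8.80 and 8.54 in mutants at 7 d, a difference of 0.85 (SE 0.16, limma adjusted p = 0.0059). RR6 had 11.23, 11.23 and 11.45 at 11 d, against 10.84, 10.73 and 10.84 at 7 d, a difference of 0.50 (SE 0.09). RR5 was lower, with 6.86, 6.51 and 6.67 at 11 d, against 7.43, 7.05 and 7.51 at 7 d, a difference of -0.65 (SE 0.14). The age groups did not overlap in any of the 3.

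RR2 (0.53) and RR4 (0.55) were higher as well, but neither passed without the array labelled 11 d replicate 3 (adjusted p = 0.068 and 0.13) or without mutant 7 d replicate 3, and RR4 lost its call also without mutant 11 d replicate 2, mutant 7 d replicate 2 or wild-type 11 d replicate 2. RR1 differed by 0.36 and did not pass. In wild-type plants all 6 were lower at 11 d, against 28.4% of all genes, with a median of -1.49. RR5 thus fell in both genotypes, by 1.68 in wild type. The interaction passed for all 6, against 38.2% of all genes. RR9 had 6.81, 6.86 and 6.94 in wild type at 11 d, against 9.03, 8.75 and 9.08 in wild type at 7 d (interaction 2.93, adjusted p = 1.3e-05).

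Of 19 genes of cytokinin metabolism 3 were higher and 1 was lower (15.8% and 5.26%, beside 6.51% and 8.98% of all genes). LOG enzymes release active cytokinin and CKX enzymes break it down. LOGL1 was lower (-0.60), and LOGL5 (0.75) and CKX4 (1.21) were higher, and all 3 passed with each array left out. In wild type LOGL1 (-0.42) and LOGL5 (1.12) passed in the same directions and CKX4 (0.65) did not pass. The interaction passed for none of the 3. LOGL3 had 10.50, 10.49 and 9.58 at 11 d, against 9.58, 9.15 and 9.51 at 7 d (0.78, limma adjusted p = 0.046). It passed without the array labelled replicate 3 (1.08, adjusted p = 0.0014) and lost its call when any of the other 11 arrays was left out. LOGL3 rose further in wild type (2.42, interaction -1.65). Among the 8 strigolactone and tillering genes, CCD8A, a carotenoid cleavage dioxygenase of strigolactone synthesis, had 7.04, 6.54 and 6.90 at 11 d, against 7.51, 7.60 and 7.54 at 7 d, and was lower by -0.73 (SE 0.12). CCD7, which acts before it, was higher by 0.41 and lost its call when any of 7 arrays was left out (mutant 11 d replicates 1 and 2, mutant 7 d replicates 1 and 3, wild-type 11 d replicates 1 and 2 and wild-type 7 d replicate 2). CCD8A (-0.52) and CCD7 (0.65) passed in the same directions in wild type, and neither interaction passed. The receptor genes D14 (-0.17) and D3 (-0.10), the repressor gene D53-L (0.15) and the tiller regulators SPL14 (0.07) and LAX1 (0.00) did not pass. D14 had 10.20, 10.35 and 10.67 in mutants at 11 d, against 10.15, 10.97 and 10.61 in mutants at 7 d, while wild type had 12.20, 12.41 and 12.38 at 11 d, against 10.34, 10.59 and 10.60 at 7 d. The mutant ages overlapped and the wild-type ages lay apart, and the interaction was -1.99 (limma adjusted p = 0.0002). SPL14 (0.92 in wild type, interaction -0.85) and D3 (1.04 in wild type, interaction -1.14) were read likewise.

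Auxin genes showed scattered changes, with 7 of 67 higher and 5 lower (10.4% and 7.46%, beside 6.51% and 8.98% of all genes). PIN5A, an auxin carrier, had 8.68, 8.70 and 9.13 at 11 d, against 7.52, 7.34 and 7.33 at 7 d, a difference of 1.44 (SE 0.16). The response factor gene ARF10 (LOC4336419) was higher by 0.63 (SE 0.09), and it was lower in wild type (-1.16, interaction 1.79). The auxin repressor genes IAA13 (-0.69) and IAA25 (-0.94) and YUCCA1, of auxin synthesis (-0.59), were lower. None of the 14 gibberellin genes and none of the 13 ethylene genes passed by limma, although up to 2 gibberellin genes and 1 ethylene gene passed when 1 array was left out.

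Both SAPK9 and SAPK10, kinases of abscisic acid signalling, were lower at 11 d. SAPK9 had signals of 6.75, 6.55 and 6.70 at 11 d, against 10.28, 10.36 and 10.23 at 7 d, a difference of -3.62 (SE 0.11, limma adjusted p = 3.4e-09). SAPK10 had 6.68, 6.58 and 6.88 at 11 d, against 7.93, 7.74 and 7.63 at 7 d, a difference of -1.06 (SE 0.11). The age groups lay far apart for SAPK9, and closer but without overlap for SAPK10. ABA1, of abscisic acid synthesis (0.81), ABA8OX2, which breaks the hormone down (1.21), and the dehydrin Dhn1 (0.53) were higher. SAPK9 fell in wild type too, by 0.73 (interaction -2.89), and SAPK10 did not pass there (-0.03, interaction -1.02). Across the 37 genes of the list 4 were higher and 2 lower, 10.8% and 5.41% beside 6.51% and 8.98% of all genes. The higher count was 7 without mutant 11 d replicate 1.

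The phosphatase gene PP2C45 gave opposite readings on its pair of probe sets. The dimmer set had 5.23, 5.51 and 6.29 at 11 d, against 7.43, 8.80 and 7.88 at 7 d (-2.36, SE 0.32, limma adjusted p = 0.00069), whereas the brighter set was higher by 0.27 (adjusted p = 0.027, lost without any of 4 mutant arrays, among them the array labelled replicate 3). The kinase gene CIPK7 was read likewise by a pair of probe sets. One had 9.44, 9.38 and 9.23 at 11 d, against 7.26, 7.57 and 6.77 at 7 d (2.15, SE 0.18), and the brighter one was lower by -0.42 (adjusted p = 0.019, lost without mutant 11 d replicate 1, the array labelled replicate 3 or mutant 7 d replicate 1). Which of the sets follows the main transcript of either gene was not tested.

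Of the heat shock genes that passed, most were higher at 11 d, and most of the list did not pass. HSF24, a heat stress transcription factor, had signals of 7.96, 7.10 and 7.18 at 11 d, against 5.17, 5.08 and 5.78 at 7 d, a difference of 2.07 (SE 0.28, limma adjusted p = 0.00066). HSP17.4, a small heat shock protein, had 7.70, 6.72 and 6.34 at 11 d, against 4.89, 4.90 and 4.95 at 7 d, a difference of 2.01 (SE 0.28). HSP81-1, an HSP90 chaperone, had 12.86, 12.77 and 12.71 at 11 d, against 12.07, 11.87 and 12.05 at 7 d, a difference of 0.78 (SE 0.09). The 11 d arrays were the higher ones throughout. CLPB-M, a ClpB chaperone, was higher by 0.94, and DJC27, a DnaJ-type co-chaperone, had 8.68, 8.34 and 8.25 at 11 d, against 6.66, 7.23 and 7.50 at 7 d, and was higher as well.

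HSF03, a class C heat stress factor, was one of 2 members that were lower, with 4.51, 4.45 and 4.20 at 11 d, against 8.15, 7.72 and 7.62 at 7 d. The difference was -3.44 (SE 0.15, limma adjusted p = 1.4e-07), and in wild type HSF03 did not pass (0.36, interaction -3.81). Of 50 heat shock genes 12 were higher and 2 were lower, against 6.51% and 8.98% of all genes, and 9 of the higher and both of the lower kept their call with each array left out. The counts were the same without the array labelled replicate 3.

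Among the redox genes PRXIIE-2, a peroxiredoxin, had 8.77, 8.85 and 8.45 at 11 d, against 9.97, 9.95 and 10.09 at 7 d, a difference of -1.31 (SE 0.10, limma adjusted p = 9.6e-06). It fell further in wild type, by 2.18 (interaction 0.87). Trx03, a thioredoxin, was higher by 1.10 (SE 0.12) and MSRB1, a methionine sulfoxide reductase, by 1.02 (SE 0.13), and neither was higher in wild type (-0.29 and -0.63). CAT-B, a catalase, was lower by -0.57 (SE 0.08). The list of 70 genes as a whole had 6 higher and 9 lower, 8.57% and 12.9% beside 6.51% and 8.98% of all genes. NSHB1, a nonsymbiotic haemoglobin, had 4.74, 5.66 and 5.30 at 11 d, against 6.23, 7.47 and 6.80 at 7 d (-1.60, adjusted p = 0.015), but the call was lost when mutant 11 d replicate 1 (-1.35, limma adjusted p = 0.065) or mutant 7 d replicate 2 (-1.28, adjusted p = 0.055) was left out. These are the dimmest of 3 probe sets of NSHB1. The other 2 were lower by -1.65 and -1.62, and neither passed without the array labelled 11 d replicate 3 (adjusted p = 0.071 and 0.12).

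Chitinases, which cleave fungal cell walls, showed 2 of the largest increases, and wild-type plants shared them. Cht4 had signals of 9.11, 8.12 and 8.40 in mutants at 11 d, against 2.78, 5.72 and 3.93 in mutants at 7 d, a difference of 4.40 (SE 0.57, limma adjusted p = 0.00049). The class IV chitinase chia4a had 9.57, 8.41 and 9.01 at 11 d, against 4.24, 5.22 and 5.11 at 7 d, a difference of 4.14 (SE 0.30). Arrays at 7 d were low but spread widely for Cht4. In wild type the same genes were higher by 4.47 and 4.12, and the interactions of -0.07 and 0.02 did not pass. CEBIP, the receptor for chitin fragments, was higher by 0.93 (SE 0.12).

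GER5, a germin-like protein, was lower, with 7.98, 7.70 and 8.62 at 11 d, against 10.44, 11.23 and 10.00 at 7 d, a difference of -2.46 (SE 0.37). It fell by 2.23 in wild type as well (interaction -0.24, not passed). GER8, another germin-like gene, was lower in the mutant (-1.06) and did not pass in wild type (0.09, interaction -1.15). Of the 36 defence genes 3 were higher and 2 lower, 8.33% and 5.56% beside 6.51% and 8.98% of all genes. The lower count was 5 without the array labelled replicate 3. The higher count was 5 without mutant 7 d replicate 2 or wild-type 7 d replicate 1.

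The jasmonate repressor genes TIFY11A and TIFY11E were lower at 11 d. TIFY11A had 7.83, 8.08 and 7.38 at 11 d, against 9.19, 9.09 and 8.69 at 7 d, a difference of -1.23 (SE 0.22, limma adjusted p = 0.0039). TIFY11E had 5.79, 6.69 and 4.10 at 11 d, against 8.29, 7.41 and 7.62 at 7 d (-2.25, SE 0.52, adjusted p = 0.019), and the call was lost when mutant 7 d replicate 1 was left out (-1.99, adjusted p = 0.071). Both were lower in wild type too, by -1.01 and -2.77. Of the 38 jasmonate genes 4 were lower (10.5%, beside 8.98% of all genes) and none was higher (beside 6.51%). Without the array labelled replicate 3, 2 were lower and 2 were higher.

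The genes of diterpenoid phytoalexin synthesis depended on 1 array. None of the 16 passed by limma with all arrays, with a median difference of 0.42, but 6 passed upward without the array labelled 11 d replicate 3, with a median of 0.83. CPS4, a diterpene cyclase, had 5.36, 6.02 and 3.65 at 11 d, against 4.19, 4.47 and 3.79 at 7 d, and its difference was 0.86 (adjusted p = 0.31) with that array and 1.54 (adjusted p = 0.0018) without it. The array labelled replicate 3 was thus the lowest of the 6 for CPS4. The mean level of the list was 3.94 to 5.39 at 11 d, against 4.16 to 4.56 at 7 d.

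Sugar transport held another large increase. SWEET2B, of the SWEET family of sugar carriers, had signals of 7.56, 7.09 and 6.18 at 11 d, against 3.81, 4.47 and 4.05 at 7 d, a difference of 2.83 (SE 0.29, limma adjusted p = 9.1e-05). A second, brighter probe set of SWEET2B was higher by 2.36. In wild type SWEET2B did not pass (0.27, interaction 2.56). HXK8, of the hexokinase family, had 7.15, 7.27 and 7.11 at 11 d, against 7.76, 7.93 and 8.08 at 7 d, and was lower by -0.75 (SE 0.10). SS2 (0.65), AGPS2, a subunit of ADP-glucose pyrophosphorylase (0.44), and PPT3, a phosphate translocator (0.67), were higher, and SPS4, a sucrose phosphate synthase, was lower (-0.35). Of the 73 sugar and starch genes 10 were higher and 5 lower, 13.7% and 6.85% beside 6.51% and 8.98% of all genes. These counts were 6 and 3 without mutant 11 d replicate 1. The lower count was 2 without mutant 11 d replicate 2 and 3 without mutant 7 d replicate 3.

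Among the remaining genes with the largest changes was APR-like1, named for adenylyl sulfate reductase, the enzyme of sulfate assimilation. It had signals of 11.21, 10.25 and 10.42 in mutants at 11 d, against 8.60, 7.40 and 6.56 in mutants at 7 d, a difference of 3.11 (SE 0.41, limma adjusted p = 0.00056). In wild type it ran the other way, with 5.05, 5.01 and 4.92 at 11 d, against 8.76, 8.60 and 7.94 at 7 d (-3.43). The interaction of 6.54, and of 7.76 on a second probe set, was the largest among genes with an informative name that passed in the mutant.

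U2AF35A, a splicing factor subunit, had 8.55, 8.32 and 8.33 at 11 d, against 6.03, 6.02 and 6.66 at 7 d, a difference of 2.16 (SE 0.20). BBD1, a bifunctional nuclease, had 6.10, 6.16 and 6.08 at 11 d, against 9.60, 9.65 and 9.09 at 7 d, a difference of -3.34 (SE 0.19), and it did not pass in wild type (0.10, interaction -3.43). TIP4-1, a tonoplast aquaporin, had 9.16, 9.40 and 8.79 at 11 d, against 10.12, 10.66 and 10.04 at 7 d, a difference of -1.16 (SE 0.17), and was higher in wild type (0.80, interaction -1.96).

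Genes without an informative name held changes as large. LOC4326757 had signals of 11.49, 8.83 and 10.44 at 11 d, against 4.46, 5.09 and 3.99 at 7 d (5.74, SE 0.58, limma adjusted p = 8.0e-05), and a second probe set of it was higher by 4.70. In wild type it was lower by -2.30 (interaction 8.04). LOC4336526 had 5.41, 4.77 and 5.50 at 11 d, against 10.89, 10.90 and 10.35 at 7 d (-5.49, SE 0.26). LOC4352254 had 3.18, 3.37 and 3.50 at 11 d, against 8.38, 8.15 and 7.80 at 7 d (-4.76, SE 0.25), and fell in wild type by 4.09.

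Growth and housekeeping lists lay near or below the shares of all genes. Of 82 cell cycle and replication genes 2 were higher and 4 were lower (2.44% and 4.88%), with a median of 0.00, and the 6 histone genes had none that passed. FEN1B, a flap endonuclease of replication, was lower by -0.47 (SE 0.06), and the cyclin-dependent kinase inhibitor KRP6 by -0.89 (SE 0.13). Only these 2 of the 6 cell cycle genes passed with each array left out, and the lower count was 2 without any 1 of 9 arrays. In wild-type plants 47 of the 82 were lower at 11 d (median -0.30) and 16 were higher, against 28.4% and 25.5% of all genes in wild type, and all 6 histone genes were lower. Of 25 cytosolic ribosomal protein genes 2 were lower in the mutant, RPL18 (-0.98) and RPL27 (-0.67), against 8.98% of all genes. In wild type 15 of the 25 were lower, against 28.4% of all genes, and no test compared the counts. None of the 8 NAC genes and none of the 6 WRKY genes passed by limma with all arrays, and 1 NAC gene passed without mutant 7 d replicate 2.

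**Figure D4:**
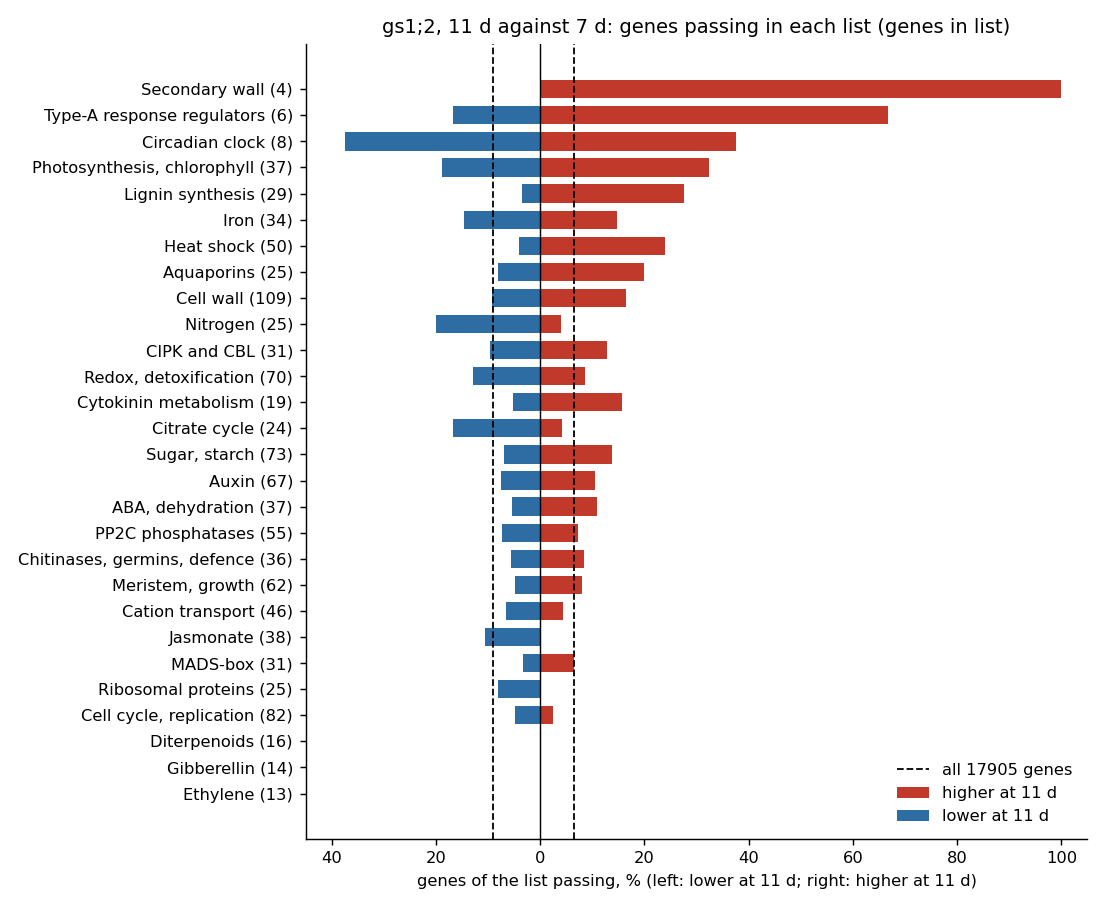
Share of genes of each list that passed in the mutant, in percent of the list, with genes higher at 11 d drawn to the right in red and genes lower at 11 d to the left in blue, and the number of genes in brackets. Dashed lines are the shares over all 17905 genes, 6.51% higher and 8.98% lower. Among the lists drawn, secondary wall, type-A response regulators and clock genes have the largest shares with both directions added, on 4, 6 and 8 genes, while the cell cycle, gibberellin and ethylene lists stay at or inside the lines.

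The wild-type arrays were used to ask where the mutant's age difference was its own. In wild type 18208 probe sets passed between 11 d and 7 d (31.8%), against 4846 (8.47%) in the mutant. Of the 4846, 2263 passed in the same direction in wild type, which is 46.7% of the mutant's calls and 12.4% of those of wild type. Another 789 passed in the opposite direction (16.3% and 4.33%), and 1794 did not pass in wild type. The difference of the differences was tested directly, and this interaction passed for 11780 probe sets (20.6%), of which 5645 were more positive in the mutant and 6135 more negative. It passed for 2253 of the 4846 (46.5%), a share that is only a description, because the interaction uses the same mutant arrays that made the calls. Without the array labelled replicate 3 the interaction passed for 10935 probe sets. Of 136 named probe sets that passed it, 130 passed again in the same direction and 6 did not, and none of these 6 has its interaction printed here.

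Over all probe sets, wild type was higher for 15.0% and lower for 16.8%, and the interaction was more positive for 9.87% and more negative for 10.7%. By gene the shares were 53.8% for wild type and 38.2% for the interaction.

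The interaction passed for 13 of the 15 largest increases among genes with an informative name, and it did not pass for Cht4 and chia4a. Such counts are only a description, because the genes were chosen on the mutant arrays that the interaction also uses. Wild type passed in the same direction for 5 of the 15, in the opposite direction for APR-like1, and not at all for 9. Among the 15 largest decreases the interaction passed for 11, with 7 that fell in wild type too, 3 that were higher there and 5 that did not pass there. The 5 largest interactions toward higher values among genes with an informative name that also passed in the mutant were those of APR-like1, BC1, AMT1-2, RR9 and NAS1. The 5 largest toward lower values were those of PP2C45 (-4.41), HSF03 (-3.81), PCL1 (-3.73), BBD1 (-3.43) and ITPK3 (-2.97). That of PP2C45 is from its dimmer probe set, and the brighter set was higher at 11 d in the mutant. ITPK3, an inositol phosphate kinase, had 7.77, 7.84 and 7.97 in mutants at 11 d, against 8.54, 8.55 and 8.29 in mutants at 7 d, and 10.59, 11.14 and 11.10 in wild type at 11 d, against 8.50, 8.70 and 8.54 in wild type at 7 d. Its fall of 0.60 in the mutant (adjusted p = 0.016) was lost without mutant 11 d replicate 1 or 2 or mutant 7 d replicate 1 or 2, at -0.69 to -0.55 over the arrays left out.

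**Figure D5:**
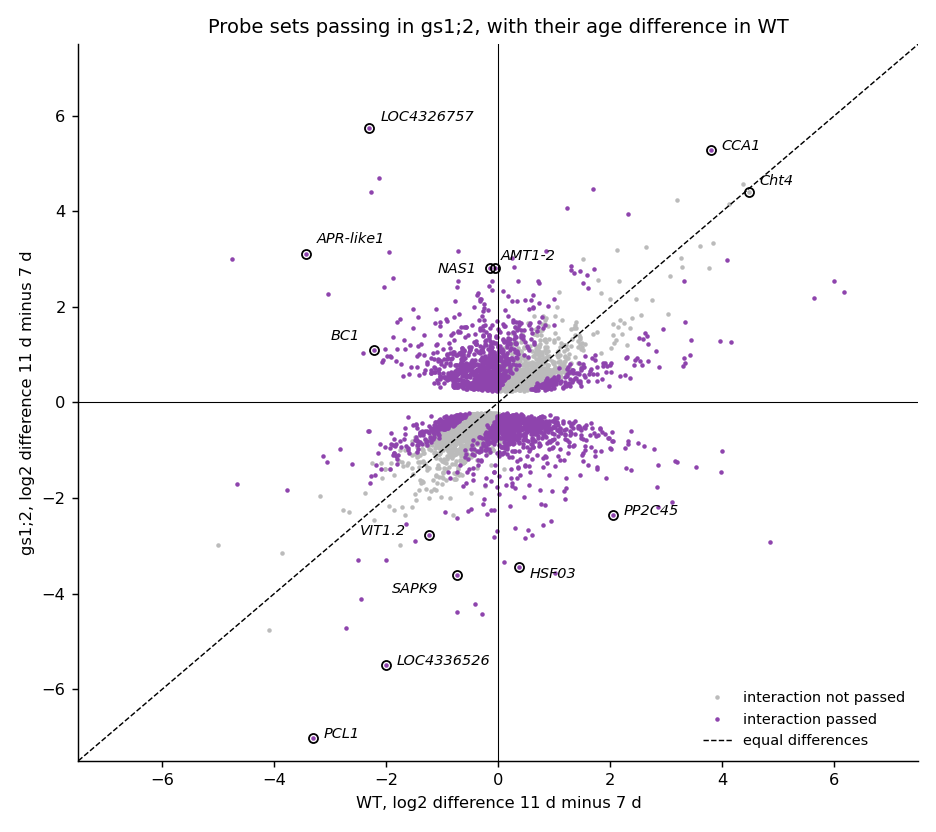
Age difference of the 4846 probe sets that passed in the mutant (y axis) against their age difference in wild type (x axis), both as 11 d minus 7 d on the log2 scale. Purple points passed the interaction and grey points did not, the dashed line marks equal differences, and ringed points are named. CCA1, Cht4 and PCL1 lie in the corners where both genotypes move the same way, APR-like1, BC1 and LOC4326757 lie at the upper left, and AMT1-2 and NAS1 lie near 0 on the x axis.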

How the data were processed

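The deposited table holds log2 signals of 12 arrays, 1 per sample, which the authors had normalised by robust multi-array average (RMA), with R 3.1.0 named per the submitters' processing notes. It has 57381 probe sets. The 187 control probe sets were left out and 57194 were tested, with no further filter. Array medians lay between 4.94 and 5.00, and no pair of arrays was identical. Every value column was used (0 left out).

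limma 3.58.1 in R 4.3.3 fitted 4 group means to the 12 arrays (8 residual degrees of freedom) with empirical Bayes moderation, and p-values were adjusted over all probe sets. The contrasts were 11 d minus 7 d in the mutant, the same in wild type, and their difference (the interaction). The analysis was tested on simulated data. The platform annotation gave 22436 probe sets 1 gene, 95 several and 34663 none, for 17905 genes. Symbols came from the RefSeq table of assembly ASM3414082v1, and 2448 genes had an informative name.

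The 40 gene lists (1144 genes, 33 topics and 7 marker lists) were matched by symbol. Members and lists were chosen with earlier results of these data known. Named genes are the 15 largest changes each way that did not overlap and passed both with all arrays and when mutant 11 d replicate 3 was left out, up to 6 members of each list by smallest p, all nitrogen, clock, type-A response regulator and strigolactone genes, GLN1-2, the 5 largest interactions each way, and 2 probe sets each way without an informative gene name. Alternatives were other moderation, array weights, scaling, a filter on dim probe sets, a minimum change, the 6 mutant arrays alone, and each array left out. The number of arrays limits precision, and p-values measure the spread between samples as labelled.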

Additional observations from a re-analysis of the deposited data

Results flagged for a closer look

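Among the genes with the largest changes or the largest interactions, there were 27 for which the age difference in the mutant differed from that in wild type by a direct test (limma interaction, adjusted p under 0.05). These genes were chosen by the size of the mutant's difference or of the interaction itself, so their number is only a description. The values below are the mutant's difference, 11 d minus 7 d, minus that of wild type, on the log2 scale, and other genes described above, such as GI and PORA, passed it too. All values share the doubts on growth condition and label given with the groups. Toward higher values in the mutant were CCA1 (1.49), APR-like1 (6.54, and 7.76 on a second probe set), SWEET2B (2.56), AMT1-2 (2.96), NAS1 (2.87), PSAG (1.77), U2AF35A (1.17) and CIPK7 (1.68). NAAT1 (2.45), HSF24 (1.35), NAS2 (2.33), HSP17.4 (2.44), CLA1 (2.11), BC1 (3.31) and RR9 (2.93) lay on the same side. PRXIIE-2 (0.87) fell in both genotypes, by 1.31 in the mutant and 2.18 in wild type. Toward lower values in the mutant were PCL1 (-3.73), SAPK9 (-2.89), HSF03 (-3.81), BBD1 (-3.43), VIT1.2 (-1.53) and PP2C45 (-4.41). PRR1 (-1.87), GLT2 (-2.38), BC1L9 (-0.83), TIP4-1 (-1.96) and ITPK3 (-2.97) did likewise. The values of PP2C45 and CIPK7 are from their dimmer probe sets. The brighter sets moved the opposite way in the mutant (0.27 for PP2C45 and -0.42 for CIPK7). ITPK3 differed mainly through wild type, where it was higher by 2.37 at 11 d.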

How the results depend on the processing

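The count of probe sets that passed between 11 d and 7 d in the mutant, 4846, stayed within 1.5 times under other moderation, array weights, common median or quantile scaling and a filter on dim probe sets, from 3957 without moderation to 5455 with a trend and robust fit. With only the 6 mutant arrays it was 3172 (1328 higher and 1844 lower). With a change of at least 1 required it was 753 (423 higher and 330 lower). With 1 array left out it ranged from 3307 to 4794, with 1352 to 2071 higher and 1771 to 2723 lower, and the lowest were without mutant 11 d replicate 1 (total and higher) and mutant 7 d replicate 3 (lower). The interaction count of 11780 became 3133 (1191 higher and 1942 lower) with a change of at least 1 required, and 9610 to 12187 with 1 array left out. No difference that passed had its direction reversed, while some that did not pass, such as those of D14, D3, SPL14 and AMT1-1, changed sign. Among the named genes 195 of the values under an alternative lost their call and 33 gained one, against 3702 that kept their side. Among list counts 142 moved by over 1.5 times and 1138 did not. Leaving out arrays other than the one labelled mutant 11 d replicate 3 was added for lists and named genes after seeing the data. The cause of these moves was not tested beyond the fewer arrays or stricter limit that define them. No paired analysis was possible because the numbers in the titles of the 11 d and 7 d mutant arrays have none in common. Dim signals, such as those of GLT2, were not tested against background, since the table of normalised values holds no background measure. Dimmer probe sets of SS2, EXP7, 4CL4, KRP6, Dhn1, GLN2, CSLF6, CAD8C, YUCCA1, ITPK3 and TIP4-1 did not pass in the mutant.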

Other observations

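Water and silicon channels were among the genes that differed in mutants. Lsi6, a silicon channel of the aquaporin family that unloads silicon from the xylem, had log2 signals of 11.54, 11.22 and 11.31 at 11 d, against 9.66, 9.90 and 9.66 at 7 d, a difference of 1.62 (SE 0.10). The groups did not overlap, and the interaction with genotype was 1.08. PIP2-4, a plasma membrane aquaporin, was higher by 0.89 and did not pass in wild type (0.19). Of the 25 aquaporin genes 5 were higher and 2 lower (20% and 8%, beside 6.51% and 8.98% of all genes). Only Lsi6, PIP2-4 and TIP4-1 kept their call with each array left out, and the higher count was 2 without mutant 11 d replicate 1 or mutant 7 d replicate 1 and 3 without mutant 7 d replicate 3, while the lower count was 1 without mutant 11 d replicate 1, the array labelled replicate 3 or mutant 7 d replicate 3.

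PHO1-2, a phosphate exporter of the shoot and root, was higher by 0.95 (SE 0.17), one of 2 of 22 phosphate genes (9.09%, beside 6.51% of all genes). Its dimmer probe sets differed by -0.04 and 0.06 and did not pass. In wild type PHO1-2 was higher too (0.72), and the interaction of 0.22 did not pass. The other of the 2 genes, MGD3, lost its call without the array labelled replicate 3. Among the calcium sensor genes, CBL4 was higher in mutants (0.86) and lower in wild type (-0.48, interaction 1.33). CIPK6 was lower in both, by -0.76 in mutants and -1.87 in wild type. Of the 31 CIPK and CBL genes 4 were higher and 3 lower in mutants, 12.9% and 9.68% beside 6.51% and 8.98% of all genes. The lower count was 1 without mutant 11 d replicate 1. The MADS-box genes MADS55 (0.98) and MADS50 (0.52) were higher at 11 d. Of the 31 MADS-box genes 2 were higher and 1 was lower, 6.45% and 3.23%. Both shares lay near or below the 6.51% and 8.98% of all genes. In the citrate cycle list 1 of 24 genes was higher and 4 were lower, 4.17% and 16.7% beside 6.51% and 8.98% of all genes. Of the lower ones SDH3-1 (-0.48) and a pyruvate dehydrogenase subunit gene, PDHE1-B (LOC4346159, -0.39), kept their call with each array left out. The higher count was 0 without mutant 11 d replicate 2 or the array labelled replicate 3, and the lower count was 2 without mutant 11 d replicate 1 or 2 or mutant 7 d replicate 3.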
